A study of Homo sapiens with 4 samples.

Results

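The plasminogen activator genes PLAU and PLAT, the urokinase receptor gene PLAUR, the serpin genes SERPINE2 and SERPINB2 and the annexin gene ANXA2 were followed in PC3 cells sorted by a stem cell reporter. They are 6 of the 57963 genes in each table and were found by symbol, 1 gene ID each. They were picked with the levels and differences of these same libraries already known, so their differences between the gates are a description. The p-values given below for these genes are therefore no support for a difference. PC3 is an established line from a bone metastasis of a prostate carcinoma. All cells carried the lentiviral SORE6 reporter, in which elements bound by SOX2 and OCT4 drive a destabilized GFP. They had been selected with puromycin, for which the labels (5 µg/mL) and the paper give different doses. Cells of passages 18 to 22 were sorted into a GFP-positive gate (SORE6+) and a GFP-negative gate (SORE6-), with 2 sequenced libraries per gate that carry the replicate numbers 1 and 2. Both gates thus came from 1 reporter line and differ by a cutoff on GFP.

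Urokinase (uPA, from PLAU) and tissue plasminogen activator (tPA, from PLAT) are serine proteases that cut plasminogen into plasmin, which digests fibrin and other matrix proteins. Urokinase works at the cell surface, held there by its receptor uPAR (from PLAUR), and serpins stop both activators by trapping them in an inactive complex. Annexin A2 (from ANXA2), together with S100A10, binds tPA and plasminogen on the outside of the cell. In prostate cancer the system is known for its part in invasion, and PC3 is known as a line that makes urokinase.

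The PC3 libraries held abundant mRNA for both activators and for annexin A2, and much less for SERPINE2 and SERPINB2. The widest gap between the gates was that of PLAT, which was 1.57-fold and 1.86-fold higher in SORE6+ cells within replicates 1 and 2. SERPINB2 was 1.06-fold and 1.65-fold higher in SORE6+ cells within replicates 1 and 2. PLAU, PLAUR and ANXA2 were at most 1.16-fold higher in SORE6+ cells within a replicate, and SERPINE2 was lower in both. The replicate 2 libraries held less PLAU than those of replicate 1 (0.598 times in SORE6- and 0.638 times in SORE6+ cells) and more SERPINE2 (1.99 and 2.07 times), and these gaps were wider than those between the gates.

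Levels are given in TPM (transcripts scaled to a fixed library total), a share of the library's transcripts corrected for transcript length, so that genes can be compared with each other. Read depth cannot be read from TPM and is unknown here. The libraries listed 29778 to 31501 genes above 0. The 7 markers chosen for PC3 epithelium summed to 3332 to 3777 TPM. Among them KRT8, KRT18, EPCAM, CD44 and the mesenchymal gene VIM overlapped between the gates. KRT19 (663 and 696 TPM in SORE6-, 772 and 790 TPM in SORE6+) and CDH1 (116 and 114, then 135 and 124 TPM) did not. Within replicates 1 and 2 the SORE6+ level of VIM was 1.53 and 1.92 times the SORE6- level. That ratio was 0.970 and 0.814 for KRT18, 0.887 and 0.832 for EPCAM, 1.13 and 0.907 for KRT8, and 1.00 and 1.01 for CD44. SOX2 was at 0.0803 TPM or less. POU5F1, which encodes OCT4, was at 2.14 to 3.09 TPM with overlapping gates, and at 1.09 and 1.22 times the SORE6- level within replicates 1 and 2. By flow cytometry the paper reports more SOX2 and OCT4 protein in SORE6+ than in SORE6- PC3 cells, a measure other than mRNA. Of 5 immune markers, 3 (PTPRC, CD3E and CD14) stayed below 1 TPM in all libraries. CD68 was at 30.7 and 27.5 TPM in SORE6- and 47.9 and 53.8 TPM in SORE6+ cells and made up most of the immune sum of 28.3 to 54.7 TPM. Of 5 endothelial markers, PECAM1 was at 12.0 to 16.9 TPM and the other 4 at 0.768 TPM or less. The 5 fibroblast markers summed to 14.7 to 39.9 TPM, mostly from COL1A1, with both replicate 1 libraries above both of replicate 2. All libraries are from sorted cells of the PC3 line, and which cells these marker transcripts came from was not tested.

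The letters of known binding sites were looked up in the promoters. The gate is cut on a reporter with elements bound by SOX2 and OCT4, and AP-1 factors are known regulators of PLAU. RefSeq windows of GRCh38.p14, from 250 bases before to 50 after a start, were matched for 5 of the 6 genes, 7 windows in all, and not for PLAT. Both strands were searched. ATGCAAAT, the octamer bound by OCT4, occurred in 1.77% of all 35116 windows. For SOX factors the letters ACAAAG (16.1% of windows) were searched, as was a second form, ACAATG (10.8%). The others were TGANTCA for AP-1 (7.71%), TGACGTCA for CRE (1.85%) and TATAAA for the TATA box (11.5%). The 7 windows held no match to the octamer, to ACAATG or to the CRE, the SERPINE2 windows held none at all, and no matches overlapped. PLAU held ACAAAG, which reads CTTTGT on the strand of the gene, at 225 and 50 bases before 1 of its starts and at 133 bases before the other. The last is shown with the match in capitals, at chr10:73910969-73911034 on the plus strand.
PLAU: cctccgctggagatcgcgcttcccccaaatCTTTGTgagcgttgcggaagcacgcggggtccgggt
The AP-1 letters were absent from the PLAU windows. These reach no more than 250 bases before a start, and sequence farther upstream was not searched for any gene. The AP-1 letters stood 186 bases before the start of PLAUR, 127 before that of ANXA2 and 102 before that of SERPINB2. They are in capitals in the next stretches, each in the direction of its gene (chr19:43670319-43670385, minus strand, chr15:60398077-60398143, minus strand, and chr18:63887573-63887639, plus strand), to set the same letters in their surroundings side by side.
PLAUR: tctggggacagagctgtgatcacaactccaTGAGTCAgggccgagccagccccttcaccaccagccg
ANXA2: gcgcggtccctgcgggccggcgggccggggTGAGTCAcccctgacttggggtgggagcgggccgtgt
SERPINB2: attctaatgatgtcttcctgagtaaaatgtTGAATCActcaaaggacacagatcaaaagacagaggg
ANXA2 and SERPINB2 also held the TATA box letters, 31 and 30 bases before the start. A match of letters is not a measured site, and binding was not measured in these data.

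**Figure D1:**
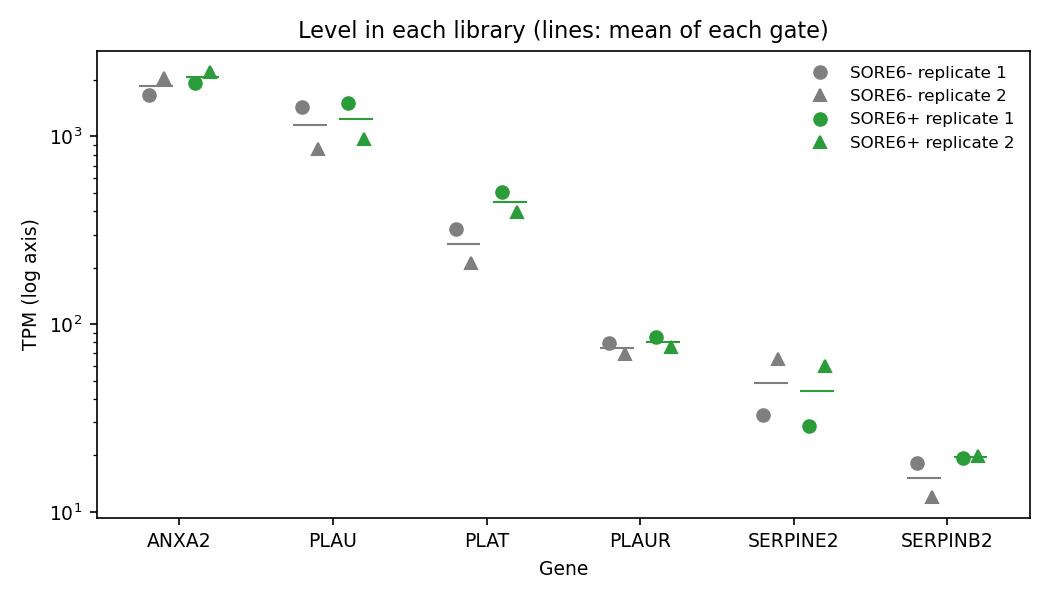
TPM of the 6 genes on a log axis in each of the 4 libraries, with circles for replicate 1, triangles for replicate 2, grey for SORE6-, green for SORE6+ and a line at the mean of each gate. ANXA2 and PLAU lie highest and SERPINB2 lowest, and only PLAT and SERPINB2 have both SORE6+ libraries above both SORE6- libraries.

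PLAU (ENSG00000122861) lies on the plus strand of GRCh38 at chr10:73909177-73917497. Replicates 1 and 2 measured 1440 and 861 TPM in the SORE6- gate, against 1515 and 967 TPM in the SORE6+ gate. Both replicate 1 libraries were high and both replicate 2 libraries low, and the gates overlapped. The means were 1151 ± 410 and 1241 ± 388 TPM (SD, n = 2 each), a log2 difference of 0.12 (standard error 0.35) on the scale of log2(TPM + 1). Standard errors here and in the paragraphs on single genes come from a fit with the gate as its only term. The spread between replicates is therefore part of them. Within replicates 1 and 2 the SORE6+ level was 1.05 and 1.12 times the SORE6- level. If the SORE6- library of replicate 2 or the SORE6+ library of replicate 1 is left out, the log2 difference is -0.25 or -0.20. With 1 library left out, the replicate difference enters the gate difference, for PLAU and for the genes below. PLAU stood at rank 63 to 136 of 19827 protein-coding genes by level. On the opposite strand, C10orf55 overlaps PLAU over 7529 bases and shares 24.1% of the 31-base sequences of PLAU transcripts. It was listed at 29.7 and 13.5 TPM in SORE6- and 28.3 and 11.8 TPM in SORE6+ cells. Whether the libraries kept strand is unknown here, so reads of these overlapping genes may not be separable.

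PLAT (ENSG00000104368) lies on the minus strand at chr8:42175233-42207724. Its levels in replicates 1 and 2 were 322 and 212 TPM in the SORE6- gate and 506 and 394 TPM in the SORE6+ gate. The lower SORE6+ library was above the higher SORE6- library, so the gates did not overlap. The means were 267 ± 78.1 and 450 ± 78.6 TPM (SD, n = 2 each), a ratio of 1.69 and a log2 difference of 0.77 (standard error 0.26). Of the 17642 genes tested, 1.39% had a higher log2 difference. As with PLAU, replicate 1 was higher than replicate 2 in both gates, by 1.52 times in SORE6- and 1.28 times in SORE6+ cells. The gap between the gates was 0.65 in replicate 1 and 0.89 in replicate 2 on the log2 scale. With any 1 library left out, the log2 difference ranged from 0.47, without the SORE6- library of replicate 2, to 1.07, without that of replicate 1. Other genes hold 2.42% of the 31-base sequences of PLAT.

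The receptor gene PLAUR (ENSG00000011422, chr19:43646095-43670547, minus strand) varied least among the 6. Its 2 SORE6- levels were 79.3 and 69.7 TPM and its 2 SORE6+ levels 85.0 and 75.5 TPM, and the gates overlapped. The highest library was 1.22 times the lowest, and within replicates 1 and 2 the SORE6+ level was 1.07 and 1.08 times the SORE6- level. The means of 74.5 ± 6.80 and 80.3 ± 6.69 TPM (SD, n = 2 each) differed by less than the SD. PLAU mRNA outnumbered PLAUR mRNA 18.2-fold and 17.8-fold in the replicate 1 libraries of SORE6- and SORE6+ cells, and 12.4-fold and 12.8-fold in those of replicate 2. The annotation places RN7SL368P within PLAUR over 277 bases, and it was listed at 3.57 TPM or less.

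SERPINE2 and SERPINB2 were far less abundant than PLAU and PLAT. SERPINE2 (ENSG00000135919, chr2:223975112-224039319, minus strand) encodes protease nexin-1, which inhibits thrombin, urokinase and tPA. Replicates 1 and 2 held 32.6 and 64.9 TPM among SORE6- cells and 28.8 and 59.6 TPM among SORE6+ cells. Both replicate 2 libraries were high and both replicate 1 libraries low, and the gates overlapped. The SORE6+ level was 0.884 and 0.918 times the SORE6- level within the replicates, and the log2 difference between the gates was -0.15 with a standard error of 0.50. Without the SORE6- library of replicate 2 or the SORE6+ library of replicate 1 it was 0.34 or 0.37, with the replicate difference then part of it. SERPINE2 was the only one of the 6 genes that was lower in SORE6+ cells within both replicates.

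SERPINB2 (ENSG00000197632, chr18:63871692-63903890, plus strand) encodes plasminogen activator inhibitor 2 (PAI-2), much of which stays inside the cell. Levels of 18.3 and 12.1 TPM in the SORE6- gate stood against 19.4 and 19.9 TPM in the SORE6+ gate. The gates did not overlap, but 3 of the libraries lay close together and the SORE6- library of replicate 2 stood below them. The SORE6+ level was 1.06 times the SORE6- level in replicate 1 and 1.65 times in replicate 2. The log2 difference of 0.38 (standard error 0.23) became 0.10 when the low library was left out. SERPINB2 shares 18.9% of its 31-base sequences with SERPINB10, which overlaps it on the same strand over 6717 bases and was listed at no more than 0.126 TPM.

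ANXA2 (ENSG00000182718, chr15:60347134-60402883, minus strand) was the most abundant of the 6 genes, at rank 37 to 50 of the protein-coding genes. Replicates 1 and 2 had 1662 and 2039 TPM in the SORE6- gate and 1920 and 2205 TPM in the SORE6+ gate. The gates overlapped, and replicate 2 was the higher one in both. The SORE6+ level was 1.16 and 1.08 times the SORE6- level within the replicates, a log2 difference of 0.16 (standard error 0.15). Over the 4 libraries left out in turn it ranged from 0.01 (SORE6- replicate 1 left out) to 0.31 (SORE6- replicate 2 left out). S100A10, the partner of annexin A2, had 971 and 1142 TPM in SORE6- and 1127 and 1114 TPM in SORE6+ cells. The processed copy ANXA2P2 shares 7.55% of the 31-base sequences of ANXA2 and was listed at 0.375 to 1.15 TPM, and ANXA2P1 and ANXA2P3 at 0.0598 TPM or less. AC087385.1, a processed pseudogene on the opposite strand within ANXA2, was listed at 5.08 to 16.7 TPM.

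By level the order was ANXA2, PLAU, PLAT, PLAUR, SERPINE2 and SERPINB2 in each of the 4 libraries. The ranges of neighbouring genes over the libraries did not overlap, with the narrowest gaps between ANXA2 (lowest 1662 TPM) and PLAU (highest 1515 TPM) and between PLAUR (lowest 69.7 TPM) and SERPINE2 (highest 64.9 TPM).

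**Figure D2:**
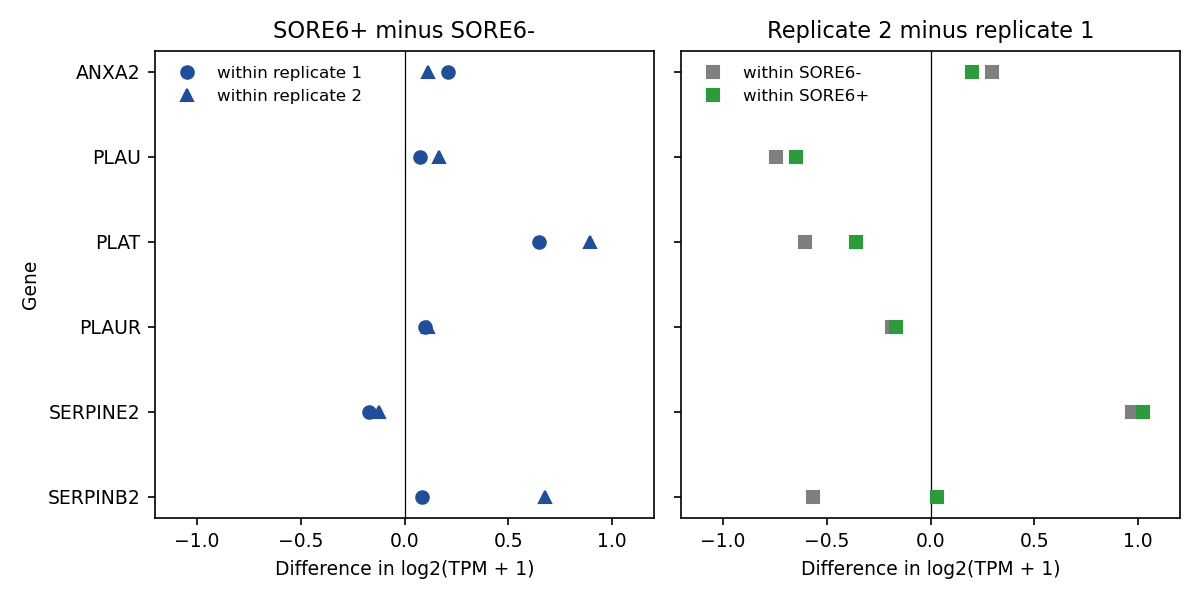
Differences in log2(TPM + 1) of the 6 genes, SORE6+ minus SORE6- within each replicate (left, circles replicate 1, triangles replicate 2) and replicate 2 minus replicate 1 within each gate (right, grey SORE6-, green SORE6+). PLAT is at 0.65 and 0.89 on the left, and on the right PLAU is at -0.74 and -0.65 and SERPINE2 at 0.97 and 1.02.

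The gap between replicates was wider than that between gates for 4 of the 6 genes, PLAU, PLAUR, SERPINE2 and ANXA2. The same held for 64.4% of the 11673 tested genes with a mean of at least 5 TPM. The replicate difference, averaged over the gates, was 1.00 on the log2 scale for SERPINE2 and -0.70 for PLAU, and 3.51% and 6.9% of those genes had a larger one in either direction. PLAU and SERPINE2 were past 1.5-fold between replicates, beside 9.95% of those genes. For PLAT the replicate difference was -0.48, against a gate difference of 0.77. What separates replicate 1 from replicate 2 is not stated in the sources at hand and was not tested.

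All genes were fitted together in limma, a linear model that shares information on the spread between genes, with the gate as its only term. The thresholds were an adjusted p below 0.1 and a change of at least 1.5-fold. None of the 17642 genes tested reached them (0% higher and 0% lower), the 6 included. At the same thresholds the paper reports genes both higher and lower in SORE6+ cells with DESeq2, which is another test. The result here is thus not a finding that no gene differs between the gates. In the limma fit with the gate alone, 673 of all genes (3.81%) and 1 of the 6, PLAT, had an unadjusted p under 0.05. A limma fit of the 12826 protein-coding genes with the replicate number as a block, known from earlier results of these data, called PLAT higher and no other of the 6, beside 0.554% of genes called higher and 0.725% called lower. With the same block over all 17642 genes PLAT was not called (limma adjusted p = 0.2353). In the protein-coding fit 4 of the 6 had an unadjusted p under 0.05, beside 24.7% of the genes fitted. The log2 differences were the same in that fit. Its standard errors were 0.047 for PLAU, 0.067 for PLAT, 0.058 for PLAUR, 0.066 for SERPINE2, 0.142 for SERPINB2 and 0.046 for ANXA2. Of the 6 genes, 5 were higher in SORE6+ cells within both replicates, which held for 23.2% of all genes tested, and 1 was lower in both, which held for 42.3%. For PLAT and SERPINB2 the SORE6+ libraries lay wholly above the SORE6- libraries, beside 10.9% of all genes tested. Nothing is read from these counts, since the genes were chosen on the same contrast. For 1 gene alone, an exact permutation test of 2 against 2 libraries cannot give a two-sided p below 0.333. In RNA from sorted cells, a larger share of cells with an mRNA and more of it per cell cannot be told apart.

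The balance of activator and inhibitor mRNA followed the replicate more than the gate for urokinase. PLAU was 28.3 and 11.2 times the sum of SERPINE2 and SERPINB2 in replicates 1 and 2 of the SORE6- gate, and 31.4 and 12.2 times in those of the SORE6+ gate. That sum, chosen after seeing the data, was 50.9 and 48.3 TPM in the replicate 1 libraries and 77.0 and 79.5 TPM in those of replicate 2. PLAT was 6.33 and 2.75 times the same sum in SORE6- and 10.5 and 4.96 times in SORE6+ cells, so this ratio differed with both the replicate and the gate. PLAU was 4.47 and 4.06 times PLAT in SORE6- cells and 3.0 and 2.45 times in SORE6+ cells, without overlap of the gates. These are ratios of mRNA, and protein and activity were not measured in these data.

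**Figure D3:**
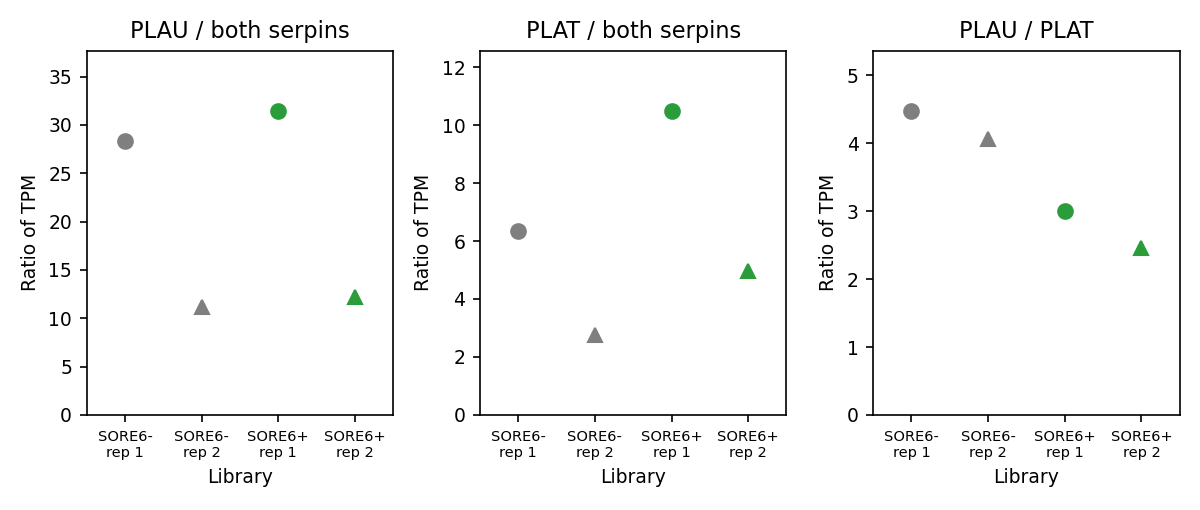
Ratios of TPM in each library, PLAU over the sum of SERPINE2 and SERPINB2, PLAT over the same sum, and PLAU over PLAT, with axes from 0, circles for replicate 1, triangles for replicate 2, grey for SORE6- and green for SORE6+. PLAU over both serpins is 28.3 and 31.4 in replicate 1 and 11.2 and 12.2 in replicate 2, and PLAU over PLAT is lower in both SORE6+ libraries.

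The other genes of the system were read from 7 lists by role, 63 of whose 81 genes had enough TPM to be tested. In limma with the gate alone 0 passed in either direction, and 6 of the 63 had an unadjusted p under 0.05, beside 3.81% of all genes tested. Of the 10 genes for inhibitors of plasmin and its activators, 5 were below 1 TPM in all libraries. The most abundant of the 10 were the Kunitz-type inhibitor genes SPINT2, at 274 to 310 TPM, and SPINT1, at 167 to 196 TPM. SERPINI1, the neuroserpin gene, followed at 4.14 to 5.66 TPM. SERPINE2 and SERPINB2 are not among the 10. Nor is TFPI2, a further Kunitz-type inhibitor gene at 75.9 to 88.8 TPM, which was counted with the activators and substrates. Over the 5 of the 10 that were tested the median log2 difference was 0.13, against -0.05 over all genes tested.

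Plasminogen mRNA was near the lower limit, with PLG at 0.518 to 1.57 TPM. ENO1, the glycolytic enzyme enolase that also binds plasminogen at the cell surface, had 1307 and 1401 TPM in SORE6- and 1580 and 1633 TPM in SORE6+ cells, without overlap. Its log2 difference was 0.25 (standard error 0.10, limma adjusted p = 0.9999). The plasminogen receptor gene PLGRKT was at 12.6 to 19.1 TPM with a log2 difference of -0.23. The 4 genes for plasminogen and its binding proteins, S100A10 included, had a median of 0.04.

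Among 15 genes for partners of the urokinase receptor and receptors that clear urokinase complexes, 13 were tested, with a median log2 difference of -0.02. In 4 of them the SORE6+ libraries lay wholly above the SORE6- libraries and in 3 wholly below, beside 10.9% and 20.2% of all genes tested. The integrin subunit gene ITGAV had 26.4 and 24.5 TPM in SORE6- and 19.0 and 17.4 TPM in SORE6+ cells, a log2 difference of -0.46 (standard error 0.13). ITGA5, another integrin subunit gene, went the other way, with 18.4 and 22.7 TPM and then 26.9 and 29 TPM, a log2 difference of 0.43 (standard error 0.16). The most abundant were ITGB1, at 679 to 871 TPM, ITGA3, at 509 to 621 TPM, CAV1, the caveolin gene, at 178 to 277 TPM, and LRPAP1, whose product is a chaperone of LRP1, at 52.6 to 58.3 TPM.

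The list of activators and substrates of urokinase or plasmin is mixed, and also holds the receptor genes MET and MST1R and the inhibitor gene TFPI2. Of its 21 genes, 16 were tested, 13 with a higher and 3 with a lower mean log2 value in SORE6+ cells. Of all genes tested, 38.8% had a higher one. The median difference of the list was 0.12. ST14, the matriptase gene, whose product can activate urokinase, was the most abundant at 178 to 212 TPM. CTSB, the cathepsin B gene, had 82.6 and 109 TPM in SORE6- and 111 and 134 TPM in SORE6+ cells, a log2 difference of 0.36. F2RL1, which encodes a protease-activated receptor, followed the replicate as PLAU did, with 121 and 56.5 TPM in SORE6- and 115 and 62.3 TPM in SORE6+ cells. MST1R, a receptor kinase gene, was at 83.9 to 88.8 TPM. MMP1, the gene of an interstitial collagenase, had 4.56 and 3.96 TPM in SORE6- and 6.51 and 6.37 TPM in SORE6+ cells, a log2 difference of 0.50 (standard error 0.17, limma adjusted p = 0.9999).

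The 9 tested of 11 other annexin genes had a median log2 difference of -0.02. ANXA7, ANXA11 and ANXA5 lay at 234 to 668 TPM, all below ANXA2. ANXA1 had 252 and 139 TPM in SORE6- and 217 and 133 TPM in SORE6+ cells, high in replicate 1 where ANXA2 was low. ANXA6 differed most between the gates, with 62.3 and 47.3 TPM and then 74.6 and 69.3 TPM, a log2 difference of 0.40 (standard error 0.17). Among relatives of the urokinase receptor with its LY6 fold, 6 of 10 table rows were tested, with a median of -0.10. CD59, which protects cells from complement, was the most abundant of these at 488 to 709 TPM, followed by LY6E at 176 to 224 TPM and LYPD3 at 22.5 to 35.8 TPM. LYPD1 had 21.2 and 19.3 TPM in SORE6- and 15.4 and 13.7 TPM in SORE6+ cells, a log2 difference of -0.45 (standard error 0.14).

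Of 10 genes for ETS and AP-1 factors, 10 were tested, with a median log2 difference of -0.05. The AP-1 subunit gene FOSL1 was the most abundant, with 650 and 576 TPM in SORE6- and 712 and 633 TPM in SORE6+ cells, followed by JUNB at 146 to 204 TPM and the ETS gene ETV4 at 96.9 to 132 TPM. JUN, another AP-1 subunit gene, had 104 and 22.6 TPM in SORE6- and 83.2 and 18.1 TPM in SORE6+ cells, so that replicate 1 was high in both gates, as for PLAU. FOS had 153 and 85.3 TPM in SORE6- and 118 and 39.3 TPM in SORE6+ cells, a log2 difference of -0.74 (standard error 0.62). In the fit of protein-coding genes with the replicate block FOS fell, with a limma adjusted p of 0.0578, a call that was lost with the block over all genes (limma adjusted p = 0.2644).

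Of 36 genes with a SERPIN symbol, SERPINE2 and SERPINB2 included, 20 were below 1 TPM in all libraries and 16 were tested, with a median log2 difference of 0.18. The most abundant were the clade B genes SERPINB5, SERPINB6, SERPINB7 and SERPINB1, at 99.7 to 159 TPM, all above SERPINE2 and SERPINB2. SERPIND1, which encodes the thrombin inhibitor heparin cofactor II, had 13.9 TPM in both SORE6- libraries and 19.3 and 22.4 TPM in SORE6+ cells, with a log2 difference of 0.54 (standard error 0.14, limma adjusted p = 0.9999).

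**Figure D4:**
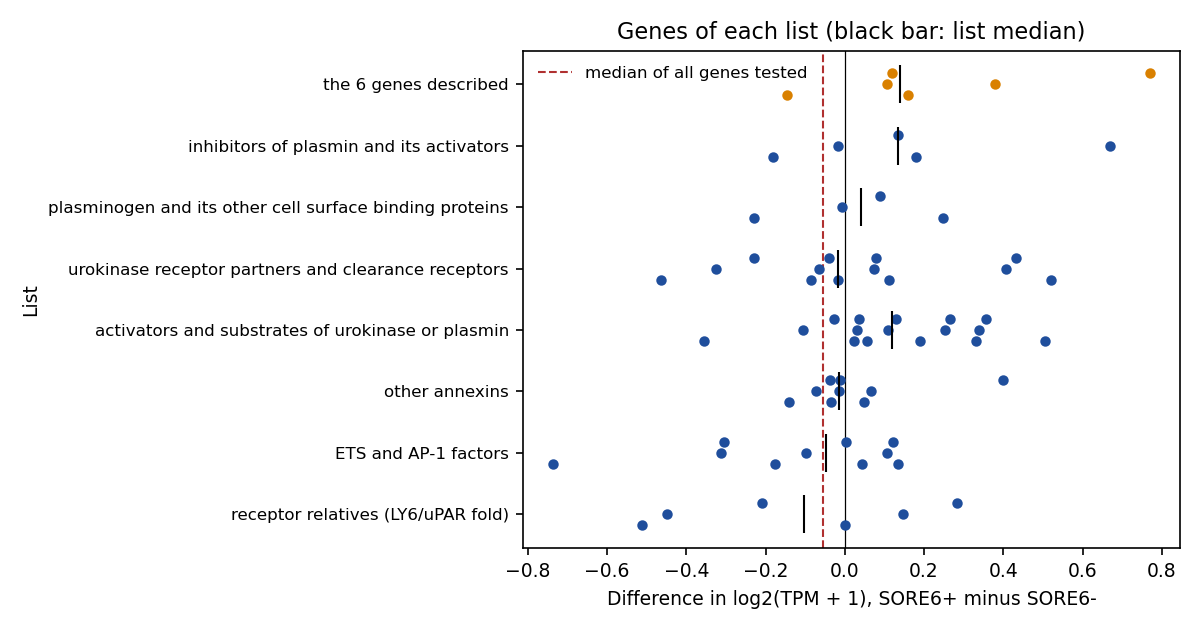
Differences in log2(TPM + 1), SORE6+ minus SORE6-, of the tested genes of the 7 role lists, 1 point a gene, with orange for the 6 genes described, a black bar at each list's median and a dashed line at the median of all genes tested (-0.05). The medians lie between -0.10 and 0.14, and the highest point is PLAT at 0.77.

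For members whose highest library was at least 1.5 times the lowest, the genes of most alike pattern over the 4 libraries were found by the distance between centred log2(TPM + 1) values, among 10366 protein-coding genes with a mean of at least 5 TPM. For PLAU these were GABPB1, OSBPL5 and ARHGDIB, at distances of 0.037 to 0.044. For PLAT they were KLK5, with 25.3 and 17.7 TPM in SORE6- and 44.1 and 31.6 TPM in SORE6+ cells, NDRG1 and BNIP3, at distances of 0.113 to 0.2. For SERPINE2 the closest was DTL, with 48.5 and 96.2 TPM and then 42.1 and 85.0 TPM, at a distance of 0.047, and BCS1L was among the next. For SERPINB2 they were BCL2A1, UBE2L6 and BRSK1, at distances of 0.094 to 0.108. The distances rest on 4 libraries and are a description.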

How the data were processed

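RNA of sorted PC3 cells was read in paired ends of 100 bp. The authors' methods name FastQC and MultiQC for read quality, Trim Galore for trimming, salmon for transcripts and tximport for the sum per gene, and the submitters' notes give GRCh38. Tool versions and the annotation release were not stated. The deposited values are TPM per gene and add up to 1000000 in each library.

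Gates and replicate numbers were taken from the labels. Genes reaching 1 TPM in 2 or more libraries (17642) were fitted as log2(TPM + 1), which understates folds of low genes, in limma 3.58.1 (R 4.3.3) with a variance trend and Benjamini-Hochberg adjustment. The methods state 2 separate sorted pairs but not whether they were separate cultures, so p-values measure the spread between these libraries, which may be technical. Types and coordinates came from GENCODE v29, matched for 57844 of 57963 IDs, and 31-base sequences were compared on both strands. Members, lists and alternatives were chosen with earlier results of these data known. Named in each list were genes past the thresholds in either fit, up to 4 most abundant and up to 2 of largest difference with a mean of at least 5 TPM. The fits were run on simulated data with 200 changed genes, and the outcome is not given or used here. For the fit with the gate alone the simulated libraries held no shared difference between replicates. Python 3.11.15, pandas 2.3.3, numpy 2.4.6 and matplotlib 3.10.9 were used. Alternatives were a pseudocount of 0.1, no filter, other scalings, the replicate block and leaving out each library. Some genes that the naming rule would give are not reported here.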

Additional observations from a re-analysis of the deposited data

How the results depend on the processing

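In limma, 0 genes were called higher and 0 lower with the gate alone, a pseudocount of 0.1, no filter, either scaling, the replicate block over all genes (2982 with an unadjusted p under 0.05), or any 1 library left out. The fit of protein-coding genes with replicate block called 71 higher and 93 lower, among them PLAT (log2 difference 0.77, limma adjusted p = 0.0182, against 0.2353 with the block over all genes) and 2 of the other pathway and SERPIN genes, of which FOS is named. Deviations from the gate means correlated at 0.344 over 17642 genes, which are not independent replicates, between libraries that share a replicate number, but 2 pairs do not show that the numbers pair the samples. Leaving out a library lets the replicate difference enter the gate difference. PLAU then ranged from -0.251 to 0.491 and was below 0 without SORE6- replicate 2 (-0.251) or SORE6+ replicate 1 (-0.203), and SERPINE2 ranged from -0.658 to 0.365 and was above 0 without the same libraries (0.339 and 0.365). PLAT ranged from 0.469 to 1.072, PLAUR from 0.015 to 0.199, SERPINB2 from 0.097 to 0.662 and ANXA2 from 0.013 to 0.308. List medians then ranged from 0.029 to 0.203 (inhibitors), -0.077 to 0.085 (plasminogen binding), -0.186 to 0.13 (receptor partners), 0.071 to 0.251 (activators and substrates), -0.007 to 0.07 (annexins), -0.52 to 0.255 (ETS and AP-1), -0.242 to -0.049 (receptor relatives) and 0.096 to 0.257 (SERPIN genes). With no filter the medians of inhibitors and SERPIN genes were 0.057 and 0.031. With scaling by relative log expression or by upper quartile, the inhibitors were at 0.196 and 0.18 and the annexins at 0.046 and 0.03. The cause was not tested. The depth reached in each library is unknown from TPM, so the counting error of low genes could not be given.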
